A study of Mus musculus with 18 samples.

Results

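The open chromatin of the conjugation enzyme genes was described in mouse liver. These are the 53 protein-coding autosomal genes, of 21418 in the GENCODE M1 annotation on mm9, whose symbols begin with Ugt1, Ugt3, Gsta, Gstm, Gstp, Gstt, Gstk, Gsto, Gstz, Mgst or Sult. Merging the deposited peak lists of 9 strains gave 51302 autosomal sites, and 141 of them overlapped 1 of these genes or lay within 10 kb of one. FAIRE-seq, which recovers nucleosome-depleted DNA from formaldehyde-fixed tissue, had been run on livers of male mice fed from 8 weeks of age, for 8 weeks, with a diet rich in fat and sucrose (HF/HS). Of the strains, 7 are inbred: CBA/J, C3H/HeJ, A/J and AKR/J, together with BALB/cJ, DBA/2J and C57BL/6J. The other 2 are recombinant inbred strains whose genomes are mosaics of C57BL/6J and C3H/HeJ, namely BXH2/TyJ and BXH19/TyJ. Every strain had 2 mice and 18 libraries were made in all. No group without the diet was among them, so all values describe livers after HF/HS feeding.

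Conjugation makes a lipid-soluble compound more soluble and ready for excretion. UDP-glucuronosyltransferases (Ugt) attach glucuronic acid, glutathione S-transferases (Gst, and the membrane-bound Mgst) attach glutathione to reactive electrophiles, and sulfotransferases (Sult) attach sulfate from the donor PAPS. The liver does much of this work for drugs, bilirubin, bile acids and steroids. The transcription factors Nrf2 (Nfe2l2), Ahr, Car (Nr1i3) and Pxr (Nr1i2) are known to switch many of these genes on through antioxidant response elements, xenobiotic response elements and nuclear receptor sites.

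Each deposited list combines the replicates of a strain, so a site is either called or not called in a strain and has 1 signal value there, with no replicate error and no test. Signal values from the peak caller were turned into percentiles within their list (100 is the strongest peak of the list), because the lists are not stated to share a scale. Percentages carry exact (Clopper-Pearson) 95% intervals, which cover counting error only and treat neighbouring sites as independent, which they are not. A site without a call may still be open below the threshold of the caller. In whole liver, an open site in fewer cells and a less open site in all cells cannot be told apart. Read totals were not used here, so depth per library is not known from the lists.

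The lists held 26769 (DBA/2J) to 30613 (CBA/J) peaks. A/J stood apart: its peaks had a mean GC content of 60.1%, against 54.7 to 57.3% in the other strains, and 5837 of the 13621 autosomal sites called in a single strain were its own. The liver label was checked against marker genes. All 8 hepatocyte markers had a site, and Apoa1, Apob and Hnf4a had one at the start in every strain, whereas the start of Alb, the albumin gene, was called in 2 strains and that of Cyp7a1, the bile acid synthesis enzyme, in none. None of the 20 marker genes of Kupffer cells, endothelial cells, stellate cells, cholangiocytes and lymphocytes had a start site in every strain. Of 4 genes that mark other organs, Ins2 had a start site in every strain. Calls at a gene start thus did not follow the marker lists closely.

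Sequences from the mm9 reference, the C57BL/6J genome, are shown first for the sites on which the results turn. The first set holds the 200 bases upstream of the annotated start of 6 genes, read along the strand of the gene. Gstm1, Gstp1 and Gsto2 had an open start in all 9 strains, Ugt1a1 in 8, Gsta3 in 2 and Gsta4 in 1. Capitals mark 4 motifs searched on both strands: the antioxidant response element core TGACNNNGC, the xenobiotic response element core GCGTG, the HNF1 core GTTAAT and the nuclear receptor core AGGTCA. No matches overlap in the windows shown.
Gstm1 (chr3:107820892-107821091, minus strand): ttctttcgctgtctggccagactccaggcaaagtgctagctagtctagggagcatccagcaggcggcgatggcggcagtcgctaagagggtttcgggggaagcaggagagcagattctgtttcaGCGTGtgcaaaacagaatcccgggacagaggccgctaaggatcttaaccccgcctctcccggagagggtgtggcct
Gstp1 (chr19:4037922-4038121, minus strand): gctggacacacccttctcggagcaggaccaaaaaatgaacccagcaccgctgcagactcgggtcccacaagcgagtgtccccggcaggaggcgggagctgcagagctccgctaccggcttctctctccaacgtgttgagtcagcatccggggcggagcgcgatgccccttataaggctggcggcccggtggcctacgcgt
Gsto2 (chr19:47939835-47940034, plus strand): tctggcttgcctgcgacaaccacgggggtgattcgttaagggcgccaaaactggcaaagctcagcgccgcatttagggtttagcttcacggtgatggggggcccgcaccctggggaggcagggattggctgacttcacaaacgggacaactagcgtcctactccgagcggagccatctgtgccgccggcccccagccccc
Ugt1a1 (chr1:90108334-90108533, plus strand): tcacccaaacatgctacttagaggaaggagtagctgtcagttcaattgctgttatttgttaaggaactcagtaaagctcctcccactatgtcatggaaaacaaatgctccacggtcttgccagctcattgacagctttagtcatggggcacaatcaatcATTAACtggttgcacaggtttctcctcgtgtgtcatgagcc
Gsta3 (chr1:21230470-21230669, plus strand): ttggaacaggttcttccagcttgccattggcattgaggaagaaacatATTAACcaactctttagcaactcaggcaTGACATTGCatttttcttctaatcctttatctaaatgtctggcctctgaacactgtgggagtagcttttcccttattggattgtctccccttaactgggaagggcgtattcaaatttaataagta
Gsta4 (chr9:78039573-78039772, plus strand): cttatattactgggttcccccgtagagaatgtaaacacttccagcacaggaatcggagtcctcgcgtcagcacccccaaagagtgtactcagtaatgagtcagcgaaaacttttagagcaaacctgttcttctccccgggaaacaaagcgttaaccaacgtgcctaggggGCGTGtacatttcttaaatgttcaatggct

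The Gsta3 window held 1 antioxidant core and 1 HNF1 core, the Ugt1a1 window 1 HNF1 core, and the Gstm1 and Gsta4 windows 1 xenobiotic core each. The Gstp1 and Gsto2 windows held none of the 4 motifs in the form searched. The Gstp1 and Gsta4 windows do hold TGAGTCAGC, which differs from the searched antioxidant core by a G in place of its first C. It was not counted. Over the same 200 bases upstream of 67107 autosomal protein-coding starts, the antioxidant core was found in 8.78%, the xenobiotic core in 28.2%, the HNF1 core in 4.15% and the nuclear receptor core in 10.4%. A match is a description of the letters and not a bound site.

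The second set holds the central 300 bases of 5 sites. The Ugt1a1 intron site was called in every strain and is in the variable list, the 2 other Ugt1 intron sites and the Sult4a1 intron site are in the variable list too, and the Gsta2 inner start site was called in 4 strains. The last lies 978 bp upstream of an inner start of Gsta2 and at the same time inside the gene, 7.21 kb downstream of the start of its longest transcript.
Ugt1a1 intron site (chr1:90110304-90110603, plus strand): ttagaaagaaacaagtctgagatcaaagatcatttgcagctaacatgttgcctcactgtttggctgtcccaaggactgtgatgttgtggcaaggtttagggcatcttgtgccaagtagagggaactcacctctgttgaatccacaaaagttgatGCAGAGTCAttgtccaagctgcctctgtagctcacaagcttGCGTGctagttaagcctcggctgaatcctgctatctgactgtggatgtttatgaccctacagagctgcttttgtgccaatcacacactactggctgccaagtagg
Ugt1 intron site called in BALB/cJ (chr1:90009394-90009693, plus strand): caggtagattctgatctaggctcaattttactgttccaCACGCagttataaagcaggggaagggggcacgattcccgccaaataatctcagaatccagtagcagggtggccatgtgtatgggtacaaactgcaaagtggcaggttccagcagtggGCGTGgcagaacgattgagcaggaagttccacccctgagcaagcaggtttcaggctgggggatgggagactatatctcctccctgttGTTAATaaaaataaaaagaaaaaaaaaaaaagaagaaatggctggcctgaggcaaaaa
Ugt1 intron site called in AKR/J and BXH19/TyJ (chr1:90037236-90037535, plus strand): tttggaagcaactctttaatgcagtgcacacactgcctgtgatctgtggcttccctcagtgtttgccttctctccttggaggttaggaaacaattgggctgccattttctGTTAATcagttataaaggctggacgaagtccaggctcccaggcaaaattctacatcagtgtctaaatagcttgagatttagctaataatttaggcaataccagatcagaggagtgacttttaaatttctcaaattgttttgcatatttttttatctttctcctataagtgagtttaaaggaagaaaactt
Sult4a1 intron site (chr15:83933652-83933951, minus strand): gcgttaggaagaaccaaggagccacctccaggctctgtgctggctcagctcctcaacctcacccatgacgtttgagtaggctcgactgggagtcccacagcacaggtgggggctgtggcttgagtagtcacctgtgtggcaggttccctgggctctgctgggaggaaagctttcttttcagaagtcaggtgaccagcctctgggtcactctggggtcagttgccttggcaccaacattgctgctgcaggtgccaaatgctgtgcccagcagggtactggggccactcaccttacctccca
Gsta2 inner start site (chr9:78196019-78196318, minus strand): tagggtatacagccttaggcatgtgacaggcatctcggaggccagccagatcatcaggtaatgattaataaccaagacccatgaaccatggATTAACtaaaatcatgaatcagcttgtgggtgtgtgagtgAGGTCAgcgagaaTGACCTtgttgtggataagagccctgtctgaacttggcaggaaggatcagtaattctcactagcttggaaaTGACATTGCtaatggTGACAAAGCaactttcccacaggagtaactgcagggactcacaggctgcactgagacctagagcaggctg

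The Gsta2 window held 2 antioxidant cores close together, 1 HNF1 core and 2 nuclear receptor cores. The Ugt1a1 intron window held 1 antioxidant and 1 xenobiotic core, and the Sult4a1 window held none of the 4. Over all 141 sites, the antioxidant core was found in 12.8% of the central 300 bases (15.5% of all autosomal sites), the xenobiotic core in 27% (31.6%), the nuclear receptor core in 25.5% (25.4%) and the HNF1 core in 12.1% (6.39%). At the 42 sites within 1 kb of a conjugation gene start the HNF1 core was in 8, or 19%, against 3.12% of all autosomal start sites. GC content differed beside this, with a median of 52.6% at these 42 sites and 60.4% at all start sites, and its part in the motif shares was not tested. The 8 start sites with the HNF1 core were called in 1 to 7 strains. At the 26 conjugation sites called in every strain the core was in 3.85%, against 3.89% of all autosomal sites called in every strain.

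Of the 53 genes, 41 had at least 1 site, a share beside which 72.9% of all autosomal protein-coding genes had one. The 12 genes without a site were Ugt3a2, Gsta1, Gstm2-ps1, Mgst2, Sult1c1, Sult2a1, Sult2a2, Sult2a3, Sult2a4, Sult2a5, Sult2a6 and Sult3a1. The 6 Sult2a genes, which sulfate hydroxysteroids and bile acids, form a cluster on chromosome 7, and none of them had a site in any of the 9 lists. Only reads with a single location had been kept. At 4 of the 12 genes, more than 50% of the 32-base words within 1 kb of the start occur again in the genome: 100% at Sult1c1, 84.8% at Gsta1 and 79.4% at both Sult2a1 and Sult2a2. At the remaining 8 the share was 0.355 to 42.2%, and at the 14 genes with an open start in every strain it was 0 to 25.9%. The part of repeated sequence in the missing calls was not tested.

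A site within 1 kb of an annotated start was called in all 9 strains for 14 genes, whereas 41.8% of all autosomal protein-coding genes had such a site. All 14 belong to the 25 Gst and Mgst genes. None of the 9 Ugt1, 2 Ugt3, 4 Gsta and 17 Sult genes had one. A further 19 genes had a start site in fewer strains, and 9 of these in a single strain. The classes with starts called in every strain were thus mu, pi, theta, kappa, omega and zeta, and the microsomal transferases. The alpha class had no such start.

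**Figure D1:**
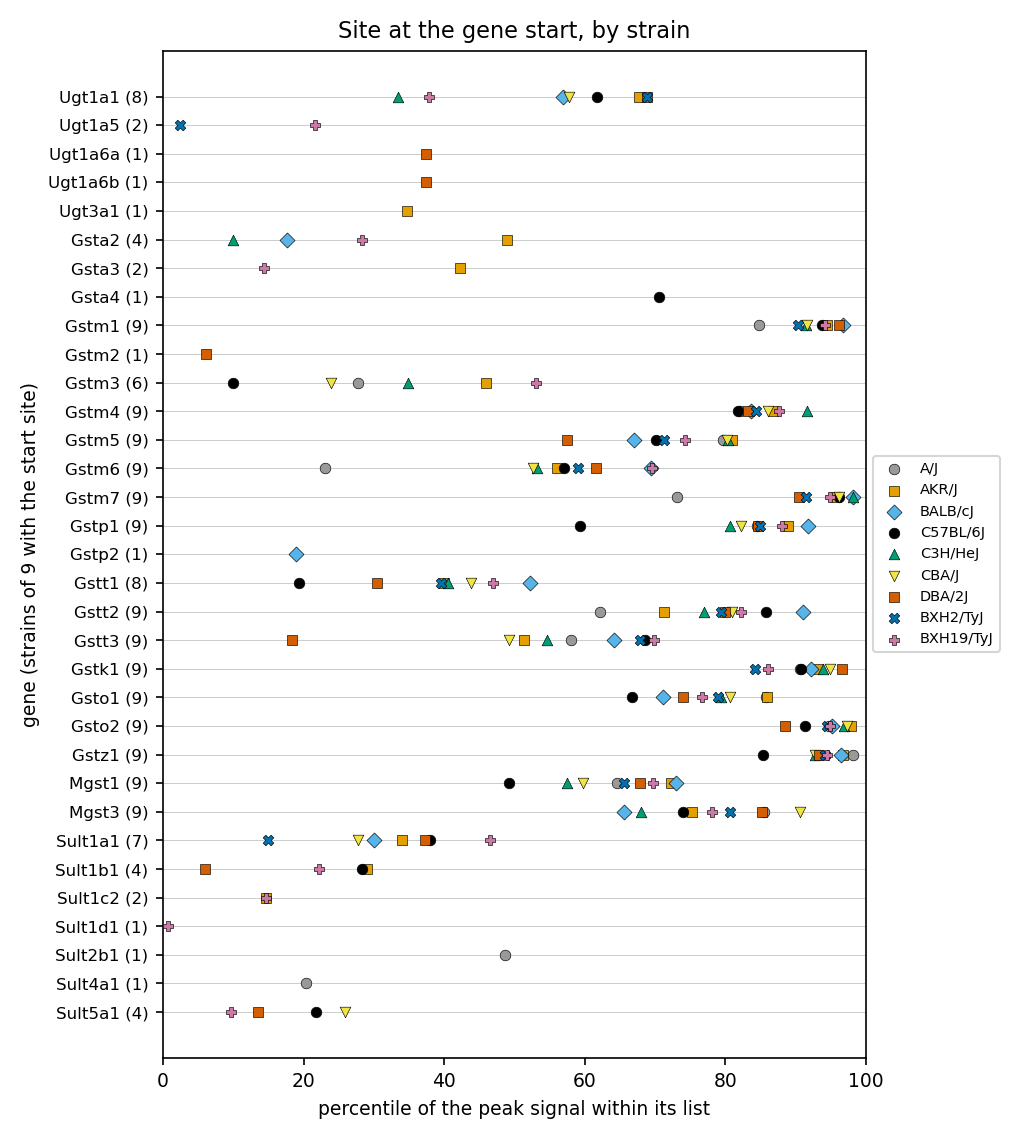
Percentile of the signal at the best start site (within 1 kb of a start) of the 33 genes that have one. Each point is the list of 1 strain, the x axis is the percentile within that list, and the number after a gene counts the strains with a call. The 14 genes with 9 calls are all Gst or Mgst genes, and their points lie mostly above 50.

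Among the mu class, which conjugates many aromatic and epoxide electrophiles, Gstm1, Gstm4, Gstm5, Gstm6 and Gstm7 had an open start in every strain. At Gstm7 the percentile was 73.1 in A/J, 95.7 in AKR/J, 98.2 in BALB/cJ, 96.1 in C57BL/6J, 98.1 in C3H/HeJ, 96.2 in CBA/J, 90.4 in DBA/2J, 91.4 in BXH2/TyJ and 94.8 in BXH19/TyJ. A/J was thus the low strain at a start that ranked among the strongest peaks in the others. Gstm1 ranged from 84.8 in A/J to 96.7 in BALB/cJ (mean 92.6 ± 3.61, SD over 9 strains) and Gstm4 from 81.8 in C57BL/6J to 91.6 in C3H/HeJ (85.2 ± 3.14). Gstm5 had a mean of 73.5 ± 7.95. At Gstm6 the percentile was 23.1 in A/J and 52.6 to 69.6 in the other strains. The start of Gstm3 was called in 6 strains at 10 to 53, that of Gstm2 in DBA/2J alone at 6.16. A second site near Gstm4 (chr3:107835101-107835616) was missing in A/J and BALB/cJ and ran from 1.05 in BXH2/TyJ to 61.1 in DBA/2J.

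Gstp1, the pi class enzyme, had an open start (chr19:4037649-4038392) in every strain. Its percentile was 84.5 in A/J, 88.9 in AKR/J, 91.8 in BALB/cJ, 59.3 in C57BL/6J, 80.6 in C3H/HeJ, 82.2 in CBA/J, 84.6 in DBA/2J, 84.9 in BXH2/TyJ and 88.1 in BXH19/TyJ. C57BL/6J lay below the other 8 strains. It was also lowest at the Gstm4, Gsto1, Gstz1 and Mgst1 starts, but at no other conjugation gene start called in every strain. At Gstp1, both recombinant strains lay above C3H/HeJ. The neighbouring Gstp2 had a start site in BALB/cJ alone, at 18.9. A site just inside Gstp1 (chr19:4035918-4037058) was called in 7 strains at 8.04 to 61.8 and was missing in DBA/2J and BXH2/TyJ, and a site beyond its end (chr19:4033326-4033802) was missing in A/J and C3H/HeJ.

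The omega class enzymes Gsto1 and Gsto2, which reduce dehydroascorbate, had 3 sites and all of them were called in every strain. The start of Gsto2 ranked highest among the member starts, with a mean percentile of 94.6 ± 2.98 and a range of 88.5 in DBA/2J to 97.8 in AKR/J, and that of Gsto1 had a mean of 77.6 ± 6.39. Gstz1, which isomerises maleylacetoacetate in tyrosine breakdown, had a start at 93.8 ± 3.69, shared with the start of Pomt2. Gstk1, found in mitochondria and peroxisomes, had a start at 91.4 ± 4, from 84.2 in BXH2/TyJ to 96.6 in DBA/2J. The starts of Gsto2, Gstz1 and Gstk1 had SDs of at most 4 percentile points, and that of Gsto1 was more spread.

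The theta class held 15 sites, of which 8 were called in every strain. The start of Gstt2 was at 78.8 ± 8.35 and that of Gstt3 at 55.8 ± 16, with 18.4 in DBA/2J and 49.2 to 69.9 in the other strains. Gstt1 was called at the start in 8 strains, at 19.4 to 52.2, and not in A/J. A site upstream of Gstt2 (chr10:75299824-75300774) was called in every strain, at 75.1 in A/J and 86.7 to 97.5 in the others. Mgst3, which acts on leukotriene and lipid peroxide substrates, had a start at 78.1 ± 8.31 and Mgst1, the most abundant microsomal form of the liver, one at 64.4 ± 7.72. An Mgst3 intron site (chr1:169304529-169305068) was called in 7 strains at 24.3 to 68 and was missing in CBA/J and DBA/2J.

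The alpha class conjugates products of lipid peroxidation, and Gsta4 is the member known for 4-hydroxynonenal. Of its 13 sites 8 were called in 1 strain and none in all 9, beside 26.6% of all autosomal sites for each. The start of Gsta4 (chr9:78039651-78039915) was called in C57BL/6J alone, at a percentile of 70.5, the only site called in a single strain that reached 50. BXH2/TyJ had no call at any of the 13 alpha class sites, while its parents C57BL/6J and C3H/HeJ had 4 and 1. CBA/J and DBA/2J had 2 each. Of all autosomal sites these strains called, in the same order, 54.8, 55, 56, 57 and 46.8%. The C57BL/6J calls were in no other strain, except that at chr1:21221743-21222407. The start of Gsta3 was called in AKR/J at 42.2 and in BXH19/TyJ at 14.4, and the inner start site of Gsta2 in AKR/J at 48.9, BALB/cJ at 17.7, C3H/HeJ at 9.89 and BXH19/TyJ at 28.3. At the first start of Gsta2 a site (chr9:78203111-78203719) was called in BALB/cJ at 16.7 and CBA/J at 3.37.

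Sulfotransferase starts were called in few strains and at low percentiles. Sult1a1, which sulfates phenols, had the widest call, in 7 strains at 15 to 46.5, with none in A/J and C3H/HeJ. Sult1b1 followed with 4 strains at 5.93 to 29, at an inner start 1.69 kb from its first, Sult5a1 with 4 at 9.68 to 25.9 and Sult1c2 with 2, AKR/J at 14.7 and BXH19/TyJ at 14.6. Single strains called the starts of Sult1d1 (BXH19/TyJ, 0.7), Sult2b1 (A/J, 48.7), the cholesterol sulfotransferase, and Sult4a1 (A/J, 20.3). Sult1e1, the estrogen sulfotransferase, had no start site, but a site upstream of it within 10 kb (chr5:88029963-88030498) was called in 8 strains at 58.6 to 90 and not in A/J. Of the 30 Sult sites, 2 were called in all 9 strains, both near Sult6b1, and each lay at the start of another gene, Eif2ak2 or 1110001A16Rik. A site upstream of Sult5a1 (chr8:125686627-125687119) was called in 7 strains at 9.33 to 59. Upstream of Sult4a1, sites at chr15:83943977-83945005 and chr15:83945372-83946609 were called in all strains but BALB/cJ, at 28.4 to 68.5 and 26.7 to 70.1.

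**Figure D2:**
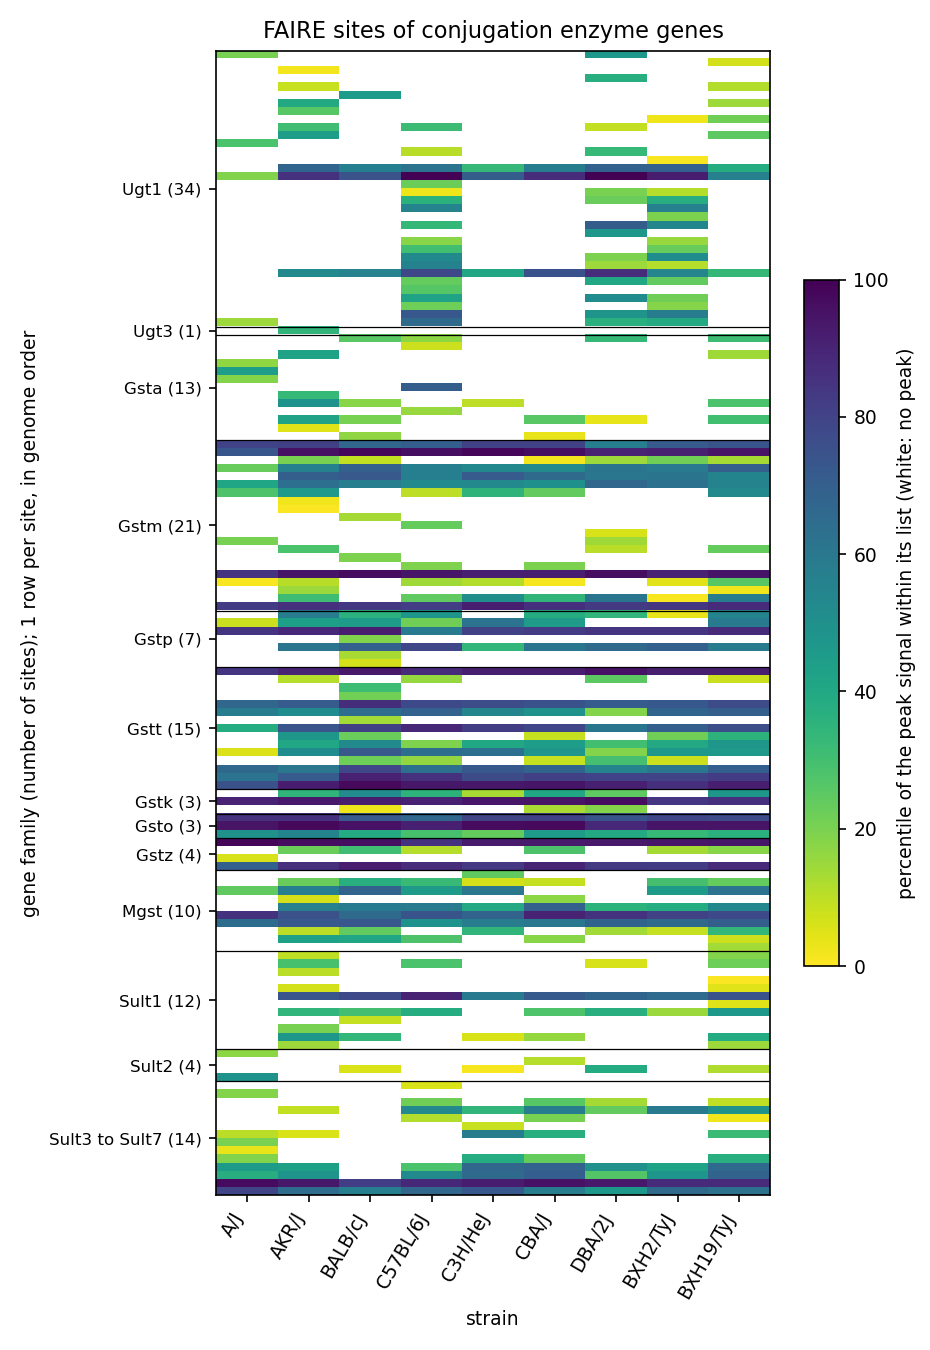
The 141 sites (rows, grouped by gene family and in genome order) in the 9 strains (columns). Colour gives the percentile of the peak signal within its list and white means no peak; the Gstm, Gstt, Gsto and Gstz blocks hold most of the rows filled in all strains, and the lower part of the Ugt1 block is filled mainly in C57BL/6J, DBA/2J and BXH2/TyJ.

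Over all families, 26 of the 141 sites (18.4%, 95% interval 12.4 to 25.8%) were called in all 9 strains, against 26.6% of all autosomal sites. Sites called in a single strain numbered 48 (34%, 26.3 to 42.5%), with 26.6% over all autosomal sites as well. The families were unlike each other. Of the 76 Gst and Mgst sites, 30.3% (20.2 to 41.9%) were called in every strain, of the 34 Ugt1 sites 2.94% (0.0744 to 15.3%) and of the 30 Sult sites 6.67% (0.818 to 22.1%). Without Ugt1 the share over the remaining 107 sites was 23.4% (15.7 to 32.5%). The median over sites of the mean percentile was 26.9 for the conjugation genes and 30.6 for all autosomal sites. At the 26 sites called in every strain the SD of the percentile over strains had a median of 7.76, with 9.51 at the 13634 such sites of all autosomes.

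**Figure D3:**
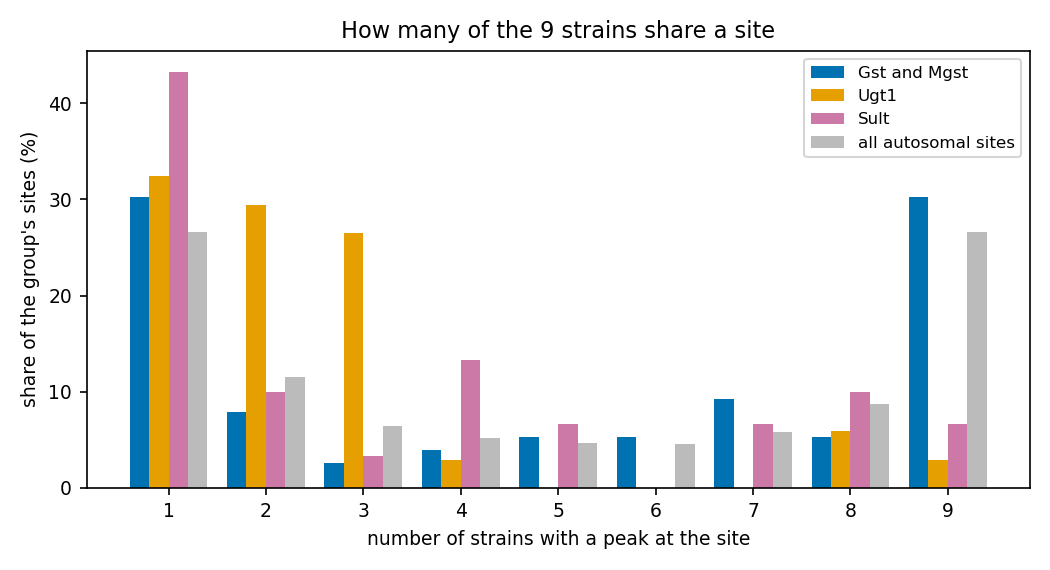
Share of the sites of each group (y axis, percent) by the number of strains with a call (x axis) for 76 Gst and Mgst sites, 34 Ugt1 sites, 30 Sult sites and all 51302 autosomal sites. Gst and Mgst sites gather at 1 and 9 strains, while Ugt1 sites gather at 1, 2 and 3 strains.

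By position, 42 sites lay within 1 kb of a member start, 15 overlapped another exon, 32 lay in introns and 52 outside the genes. Among these sites the starts were called in every strain most often, at 15 of 42 (35.7%), and exons, introns and outside sites at 6.67, 12.5 and 11.5%. Over all autosomal sites of any position the share was 26.6%. It was not computed there by position, so the order of the positions may not be particular to these genes. Of the 141 sites, 11 lay within 1 kb of the start of a gene outside these families, the Gstt3 and Gstz1 start sites among them, and 6 of the 11 were called in every strain.

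The 9 Ugt1 genes share their last exons and differ in their first, so most of the 34 sites there belong to several genes at once. Ugt1a1, which conjugates bilirubin, was the only one with a widely called start. Its start site (chr1:90108250-90109514) was not called in A/J, and its percentile was 67.7 in AKR/J, 56.9 in BALB/cJ, 61.8 in C57BL/6J, 33.4 in C3H/HeJ, 57.8 in CBA/J, 68.8 in DBA/2J, 68.9 in BXH2/TyJ and 37.9 in BXH19/TyJ. C3H/HeJ and BXH19/TyJ were the low strains with a call, and BXH2/TyJ lay with C57BL/6J. Ugt1a5 had a start site in BXH2/TyJ at 2.47 and BXH19/TyJ at 21.6. Ugt1a6a and Ugt1a6b, which glucuronidate small planar phenols, had 1 in DBA/2J at 37.4, and Ugt1a2, Ugt1a7c, Ugt1a8, Ugt1a9 and Ugt1a10 had none. Outside the locus, Ugt3a1 had 1 start site, in AKR/J at 34.7.

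The site in the first intron of Ugt1a1 (chr1:90109623-90111285), 1089 bp past its start, was the only Ugt1 site called in all 9 strains. Its percentile was 19 in A/J, 85.9 in AKR/J, 74.3 in BALB/cJ, 99.5 in C57BL/6J, 70.4 in C3H/HeJ, 87.2 in CBA/J, 99.4 in DBA/2J, 92.5 in BXH2/TyJ and 56.4 in BXH19/TyJ. C57BL/6J and DBA/2J placed it among their very strongest peaks, BXH2/TyJ lay above C3H/HeJ and BXH19/TyJ below it. This site is in the list of variable sites, the 5% of sites with the smallest adjusted p across the inbred strains in the test of the study. That list was chosen on these libraries and is not independent evidence. Of the 141 sites, 4 are in it (2.84%, 0.778 to 7.1%; 4.87% of all autosomal sites).

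The other variable sites were called in fewer strains. An intron site of the upstream Ugt1 genes (chr1:90009385-90009702) was called in BALB/cJ alone at 44.8, and another (chr1:90037220-90037551) in AKR/J at 39.2 and BXH19/TyJ at 14.7. Of their 32-base words, 32.8 and 68.8% occur again in the genome, against 0% at the variable sites of Ugt1a1 and Sult4a1. The fourth lies in an intron of Sult4a1 (chr15:83933465-83934139), a sulfotransferase-like gene best known from brain, and was called in A/J at 10.2, AKR/J at 5.56, C3H/HeJ at 58.1, CBA/J at 36.9 and BXH19/TyJ at 31.8. The list of common sites, the 5% with the largest adjusted p, held 3 of the 141 (2.13%, 0.441 to 6.09%; 4.93% of all autosomal sites). One is the start of Cabin1 within 10 kb of Gstt3 (chr10:75226544-75227742), called in every strain at 85 to 95.3. The others were weak: an exon site of Gstm6 (chr3:107742205-107742710) in 6 strains at 1.93 to 21.6 and a site outside Sult4a1 (chr15:83904389-83904674) in 3 strains at 2.29 to 20.1.

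Past the first intron, the Ugt1a1 locus split the strains. From 3 kb after the start of Ugt1a1 to the last site within 10 kb of a Ugt1 gene (chr1:90112104-90127466, 15.4 kb), 18 sites followed each other. They were called 16 times in C57BL/6J, 11 times in DBA/2J and 15 times in BXH2/TyJ, and once in each of the other 6 strains. At 16 of the 18 sites a call was found in no strain outside C57BL/6J, DBA/2J and BXH2/TyJ, a pattern that 7.31% of all autosomal sites show. The pattern was chosen after the values were seen. It was found at 9 of the 123 conjugation sites elsewhere (7.32%), near the background.

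**Figure D4:**
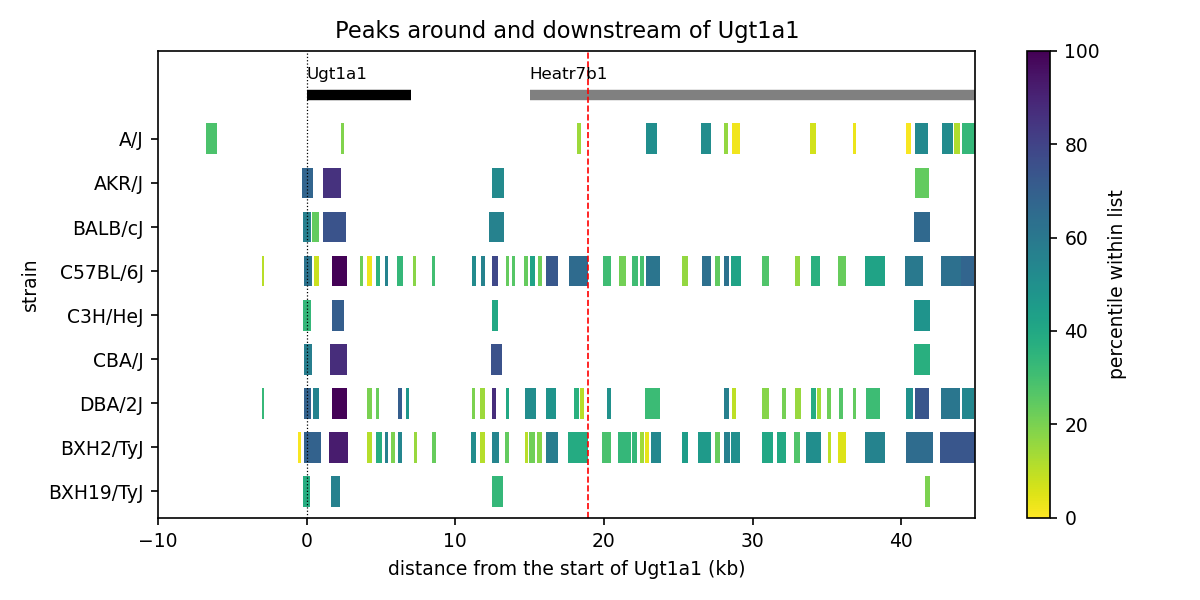
Peaks of each strain (rows) by distance from the start of Ugt1a1 (x axis, kb), coloured by percentile within the list. The black bar is Ugt1a1, the grey bar Heatr7b1, the dotted line the Ugt1a1 start and the dashed red line the end of the last of the 141 sites; between 3 and 18.9 kb C57BL/6J, DBA/2J and BXH2/TyJ have many peaks and the other 6 strains 1 each.

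Of the 18 sites, 7 overlapped exons, 1 lay in an intron and 10 beyond the gene end, and the median width was 335 bp. The site at chr1:90123170-90123931 covers the start of Heatr7b1, 15 kb past that of Ugt1a1. The sites after it lie past that start, so the end of the stretch belongs to Heatr7b1 as well. The percentiles were mid-range, with medians of 34.7 in C57BL/6J, 40.2 in DBA/2J and 24 in BXH2/TyJ and a highest value of 87.4 in DBA/2J. A site at chr1:90114640-90115006 reached 33.3 in C57BL/6J, 70.6 in DBA/2J and 54.2 in BXH2/TyJ. One at chr1:90124617-90125476, 1011 bp past the Heatr7b1 start, reached 72.8, 48.4 and 58.1. The site at chr1:90119597-90119935 was at 52.2, 19.6 and 51.4, and that at chr1:90113777-90114023 was called at 55.2 in C57BL/6J and 56.6 in BXH2/TyJ. The site called beyond these strains (chr1:90120782-90121806) was called in all but A/J, at 33.3 in BXH19/TyJ to 87.4 in DBA/2J, and A/J had its 1 call at chr1:90126107-90127466 (14.7), a site at 65.6 in C57BL/6J, 36.6 in DBA/2J and 38.7 in BXH2/TyJ. None of the 18 sites is in the variable or the common list.

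The 3 lists had the lowest median signals of the 9 (0.118 in DBA/2J, 0.132 in C57BL/6J and 0.145 in BXH2/TyJ, against 0.192 to 0.64 in the others), and the part of this in the pattern was not tested. Inside marker genes the pattern was at 5 of 27 sites for hepatocytes, 1 of 22 for endothelial and 1 of 3 for Kupffer cells. It was at 0 of 5 for stellate cells, 0 of 1 each for cholangiocytes and lymphocytes, and 1 of 3 for genes of other organs. Over all autosomal sites the share was 7.31%. Repeated sequence was scarce in the stretch: 1 of the 18 sites had over 50% of its 32-base words elsewhere in the genome (54.2%), and the median was 0%. Sites of this pattern no more than 3 kb apart were joined into runs, and sites without the pattern between them were skipped. The run that starts here was the longest of 3401 on the autosomes, with 28 sites of the pattern over 35.3 kb (chr1:90112104-90147438). Of the 28, 16 are conjugation sites. Sites called in other strains lie inside the run, such as chr1:90120782-90121806. The run continues further into Heatr7b1, where A/J also had 6 calls at the 18 sites past the last conjugation site. The runs ranked 2, 3 and 4 had 15 (19 kb), 8 and 7 sites, all at C130026I21Rik on chromosome 1 (chr1:85239689-85285531). Those ranked 6, 7 and 10 lay on chromosome 1 too, within chr1:85105947-87487436. Those ranked 5, 8 and 9 lay on chromosomes 10, 13 and 16.

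The recombinant strains allow a comparison by parent. C57BL/6J and C3H/HeJ differed in their calls at 41 of the 141 sites, and over all autosomal sites 23.8% differed. Of the 41, 33 were called in C57BL/6J only and 8 in C3H/HeJ only, and without the stretch downstream of Ugt1a1 the numbers were 18 and 8. Over all autosomal sites they were 5827 and 6382. At 24 of the 41, BXH2/TyJ matched C57BL/6J (58.5%, 42.1 to 73.7%; 44.6% over all differing autosomal sites) and BXH19/TyJ did so at 11 (26.8%, 14.2 to 42.9%; 43.9% over all). The 15 differing sites downstream of Ugt1a1 held all of the gap between the 2 strains: BXH2/TyJ matched C57BL/6J at 13 and BXH19/TyJ at 0. At the 26 differing sites elsewhere both strains had the C57BL/6J state at 11 (42.3%), but not by the same calls. BXH2/TyJ had a call at 4 of the 18 C57BL/6J-only sites and 1 of the 8 C3H/HeJ-only sites, and BXH19/TyJ at 9 and 6. Most matches of BXH2/TyJ there were thus missing calls. Sites of 1 locus are inherited together, so the Ugt1a1 sites count as 1 locus rather than 15. Genotypes of the recombinant strains were not used here, and reads of these strains had been aligned both ways, on the reference and on its C3H/HeJ version. The study describes the outcomes as similar but does not state which alignment gave the lists.

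AKR/J and BXH19/TyJ alone had a call at 8 of the 141 sites, a pattern of 1.26% of all autosomal sites that was also chosen after the values were seen. These were 3 Ugt1 intron sites, the start of Gsta3, a site upstream of Gstm1, and 3 Sult1 sites at Sult1b1, Sult1d1 and the start of Sult1c2. All but the AKR/J calls at Gsta3 (42.2) and at 2 Ugt1 sites (39.2 and 44.4) were at a percentile of 24.8 or lower.

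Strains also differed in the share of the 141 sites they called. The share was lowest in A/J, 33.3% (25.6 to 41.8%), although 54.3% of all autosomal sites were called there. It was 36.2% in C3H/HeJ (all sites 56%), 42.6% in CBA/J (57%), 44% in BALB/cJ (56.4%), 44.7% in BXH2/TyJ (54.8%), 47.5% in DBA/2J (46.8%), 53.2% in BXH19/TyJ (55.4%), 53.9% in C57BL/6J (55%) and 53.9% in AKR/J (54.3%). Without the Ugt1 sites AKR/J and BXH19/TyJ led with 62.6% each, and A/J (40.2%) and BXH2/TyJ (41.1%) were lowest. A/J alone lacked a call at 7 sites (4.96%), near its 5.33% over all autosomal sites, BALB/cJ alone at 2 (1.42%, against 0.189%) and no other strain at any. The 2 sites of BALB/cJ are neighbours upstream of Sult4a1 and count as 1 locus. The A/J list is also the one with GC-rich peaks, whereas the conjugation sites had a median GC content of 49.8% against 53.9% over all sites; the part of this in the low share was not tested.

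**Figure D5:**
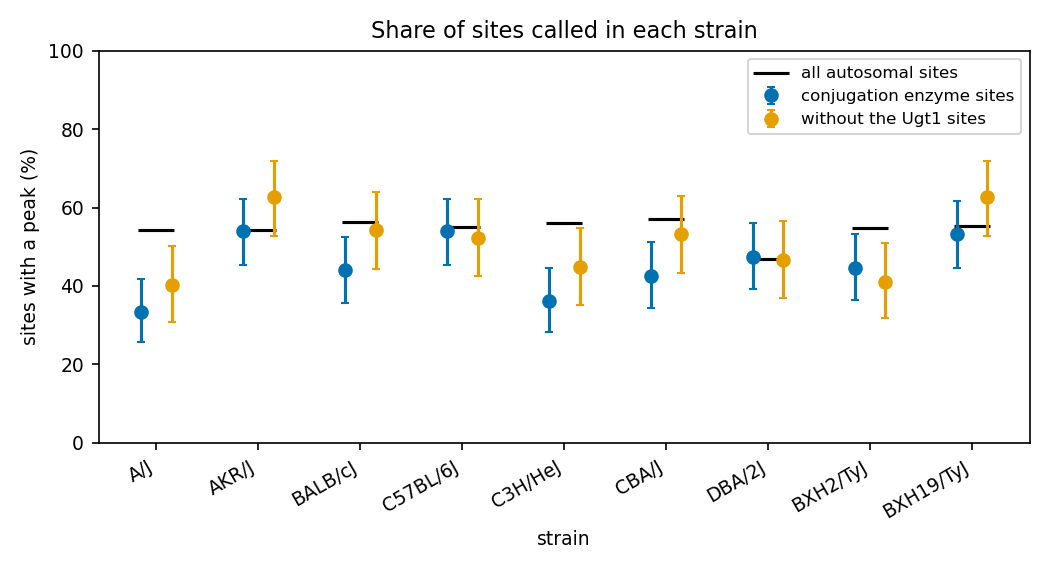
Share of sites with a peak in each strain (y axis, percent) for the 141 conjugation sites (blue), the 107 sites without Ugt1 (orange) and all autosomal sites (black bars). Error bars are exact 95% intervals for counting error; A/J is lowest for the 141 sites at 33.3%.

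Genes that supply or regulate conjugation were set beside the enzymes, from a list of 30. Of these, 29 had a site, beside 72.9% of all autosomal protein-coding genes. A start site in all 9 strains was found for 41.8% of all these genes, for 14 of the 53 enzymes and for 20 of the list (66.7%). The 3 genes for the glucuronate donor were all in this group: Ugdh, which makes UDP-glucuronic acid, at a mean percentile of 97.6, Ugp2 at 93.6 and the transporter Slc35d1 at 71.8. Of the 6 genes for the sulfate donor 4 were, with Papss1, a PAPS synthase, at 97.9, whereas the start of Papss2 was called in AKR/J (35.8) and BXH19/TyJ (39.8) only. Of the 7 glutathione genes 3 were: Gss was at 95.8, while Gclc, the catalytic subunit of the rate-limiting ligase, was called at the start in A/J (57.1) and BXH2/TyJ (26.7) only and its partner Gclm in all but DBA/2J. The glucuronate donor genes thus had a called start in every strain and the Ugt1 genes did not.

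Among 7 regulators, 6 had an open start in every strain, beside 41.8% of all autosomal protein-coding genes. Nfe2l2 was at 92.7 to 98.5 and Arnt, the partner of Ahr, at 92.2 to 99.1, with little spread. Keap1, the protein that holds Nrf2 in check, spread widely, with 79.5 in A/J, 41.5 in AKR/J, 35.2 in BALB/cJ, 2.86 in C57BL/6J, 52.7 in C3H/HeJ, 24.2 in CBA/J, 33.7 in DBA/2J, 75.6 in BXH2/TyJ and 48.9 in BXH19/TyJ. Nr1i3 ranged from 23.2 in DBA/2J to 83.5 in AKR/J and Ahr from 38.4 in C57BL/6J to 76.6 in A/J. Nr1i2 was the exception, with a start called in 7 strains at 14.7 to 51.8 and none in A/J and BXH2/TyJ. Among the 7 other conjugation genes 4 had an open start in every strain. Tpmt, which methylates thiopurines, was at 98.8, and Nqo1, a classical Nrf2 target, at 26.2.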

How the data were processed

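FAIRE-seq libraries of liver from 9 strains, 2 per strain, were available as 1 combined peak list per strain. The authors aligned reads with bowtie to mm9 carrying the SNPs of each inbred strain (for the recombinant strains, to mm9 and to the C3H/HeJ version), dropped reads that mapped to several places, duplicates and improper pairs, ran F-seq for peaks and combined replicates with IDR. For the tools, versions are not stated in the sources read, nor is a threshold for IDR. The deposited lists give each peak's position and the caller's signal as a score with no stated scaling across strains. The variable and common lists hold positions only, which the authors chose with DESeq on the 7 inbred strains.

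Overlapping or touching peaks of the 9 lists were merged, and autosomal sites were kept. Overlap of 1 bp with a peak counted as a call, and the highest percentile of the peaks there was taken. Sites within 10 kb of a gene were assigned to it, and start sites lay within 1 kb of an annotated start. Genes came from GENCODE M1 and sequences from NCBIM37, the assembly that is mm9. No differential test was run, because each strain has 1 list. Values that stand apart among the 7 inbred strains were found with Dixon's limit. The members, gene lists, motifs and alternatives were chosen with earlier results of these data known. Named are up to 4 start sites per family by percentile, genes with a variable or common site, the 10 sites with the largest SD of percentile (no peak as 0) among sites with 2 or more strains called and 2 or more not called, single-strain sites at or above a percentile of 50, and genes without a site. Of these 10 sites, 5 lie in the Ugt1 stretch. The Ugt1a1 stretch, the shared AKR/J and BXH19/TyJ calls and the repeated 32-base words were examined after the values were seen.

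Merging, calling, coverage, overlap and motif steps matched the simulated answers in 50 of 50 runs each. Tools were samtools 1.23.1 and, under Python 3.11.15, scipy 1.17.1 for intervals, pandas 2.3.3 and numpy 2.4.6 for tables, matplotlib 3.10.9 for plots and pysam 0.24.0 for sequence.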

Additional observations from a re-analysis of the deposited data

Results flagged for a closer look

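For the 26 sites called in all 7 inbred strains, and for the share of sites called by strain, the distance of the lowest or highest inbred strain to its nearest neighbour was compared with Dixon's 95% limit for 7 values. The limit flags about 1 in 20 groups of normally distributed values, which percentiles bounded at 100 need not be. Here 8 of 27 passed it, all of them sites. That is 30.8% of the 26 sites, beside 17.5% of the 13900 autosomal sites called in all 7 inbred strains. In 5 (19.2%) A/J was the low strain, beside 11.8% over all these autosomal sites. Its percentile was 19 at the Ugt1a1 intron site (the other inbred strains 70.4 to 99.5), 73.1 at the Gstm7 start (90.4 to 98.2), 23.1 at the Gstm6 start (52.6 to 69.4), 75.1 at the site upstream of Gstt2 (91.2 to 97.5) and 69.3 at an exon site of Gstz1 (83.2 to 92.4). C57BL/6J was low at the Gstp1 start, with 59.3 (80.6 to 91.8), and at the Gstz1 start, with 85.4 (92.7 to 98.2). DBA/2J was low at the Gstt3 start, with 18.4 (49.2 to 68.5). The 26 sites share their lists, so the 5 values of A/J are not independent of each other.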

How the results depend on the processing

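No paired analysis was possible because each deposited list combines the replicates of a strain, and for the same reason no replicate could be left out. Strains were left out in turn instead. Of 93 alternative values for 10 results, 83 stayed within the interval of the reported value or within 1.5 times it, and so did all 72 values with a strain left out. These ranged from 131 to 140 sites, 40 to 41 genes with a site, 18.6 to 25.2% called in every strain (35.7% of all autosomal sites without A/J), 29.3 to 38.7% called in 1 strain, a median percentile of 26.3 to 28.3, 3 to 4 variable sites, 3 common sites and 14 to 16 genes with a start site in every strain. Taking overlap with the gene only left 86 sites and 1 common site, and 25 kb gave 8 common sites. Requiring the nearest start to be a member's left 1 common site. Requiring peaks to cover 50% of a site gave 10.6% called in every strain (13.3% of all sites) and 8 genes with such a start. The 20000 strongest peaks per list left 76 sites, 27.6% called in every strain (30.2% of all sites), 1 common site, and 10 of 11 sites downstream of Ugt1a1 called only in C57BL/6J, DBA/2J and BXH2/TyJ; fewer peaks enter by construction. Counting a missing peak as 0 gave a median percentile of 7.69 (12.5 over all sites). Without the sites downstream of Ugt1a1, chosen after seeing the data, BXH2/TyJ and BXH19/TyJ had the C57BL/6J state at 42.3% each. Depth per library was not used, so weak sites cannot be told from sites under the threshold of a list.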
